A study of Mus musculus and Homo sapiens with 14 samples.

Results

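The genes described here are 10 parts of the T-cell receptor machinery: the CD3 chains Cd3d, Cd3e, Cd3g and Cd247, the co-receptors Cd4, Cd8a and Cd8b1, the kinases Lck and Zap70, and the adaptor Trat1. They were chosen by symbol, and each has 1 entry among the 50559 genes of the EL4 tumour table and the 55969 genes of the EG7 table. RNA sequencing of total RNA covered 10 libraries of the 14 in the series, in 5 groups of 2. P0 and P3 are tumours grown from EL4, a lymphoma line of mouse T cells. What 0 and 3 count, and which hosts carried the tumours, is not given in the labels. The other 3 groups are cultured EG7-OVA cells, an EL4 derivative made to express ovalbumin, given DMSO as solvent, azacytidine at 1.5 µM or decitabine at 0.2 µM. Doses were added at 0, 24 and 48 h and cells were harvested at 72 h. Every sample carries the genotype label WT, and no age, sex or host strain is used here. The labels do not say whether the libraries of a group came from separate tumours or cultures, so p-values measure only the spread between these samples.

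The T-cell receptor binds antigen but has no signalling tail of its own. The CD3 chains carry that task through tyrosine motifs, and the zeta chain, encoded by Cd247, adds the most of these. The co-receptors CD4 and CD8 bring the kinase LCK to the receptor, LCK phosphorylates the CD3 motifs, and ZAP-70 docks on them and passes the signal to adaptors. TRAT1, also called TRIM, is a small membrane adaptor that associates with the receptor complex. A thymocyte passes through a stage with both co-receptors and then keeps CD4 or CD8, a choice set by transcription factors such as ThPOK (Zbtb7b) and RUNX3. Azacytidine is a ribonucleoside and decitabine its deoxyribose counterpart, and both trap DNA methyltransferases once they are built into DNA.

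Library totals were 21621580 to 25328708 counts in the tumours and 15690747 to 21048979 in EG7 cells. Values below are counts per 1000000 reads (CPM) after TMM scaling, and log2 fold changes ± SE come from edgeR's quasi-likelihood test with n = 2 libraries per group and Benjamini-Hochberg adjusted p-values over all genes tested. A gene passed at an adjusted p under 0.05. Libraries are named by the number that ends their column name. In EG7 cells the DMSO pair stood apart: 179 of 15465 genes at 1 CPM or more were at least 8-fold higher in library 2 than in library 1, and 0 were that much lower. In the azacytidine pair 7 genes, and in the decitabine pair 8, were that much higher in library 1, and 0 in library 2. In the tumours 93 genes were that much higher in P3 library 1 and 4 in P3 library 2, and 0 differed so in the P0 pair. Macrophage markers summed to 1460 and 1810 CPM in P0 and 430 and 410 CPM in P3, and 13 of 16 were lower and 1 higher. Stromal and endothelial markers summed to 3050 and 3110 against 1860 and 1150 CPM, where 2 of 10 were lower (Col1a1 and Col1a2), 1 was higher (Pdgfrb) and 7 did not pass. B-cell markers summed to 200 and 383 CPM in P0 and 32.2 and 32.7 CPM in P3, while neutrophil markers stood at 9.14 and 12.1 against 19.2 and 67.2 CPM. In EG7 cells macrophage markers summed to 21.5 to 65.2 CPM, dendritic markers to 13.1 to 26.4, NK and cytotoxic markers to 4.29 to 24.3, neutrophil markers to 0.553 to 1.37, stromal and endothelial markers to 61.7 to 148 and B-cell markers to 354 to 461 CPM.

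In the tumours 2 of the 10 genes were higher in P3 (Cd4 and Trat1), 3 were lower (Cd8a, Cd8b1 and Lck) and 5 did not pass. Over all 19993 genes tested 38.7% passed, 18.8% higher and 19.9% lower, so the members' share of calls stood near that of the table. DESeq2 called 31.6% of genes. The median log2 fold change was -0.25 over the members against -0.002 over all genes tested. The labels do not state what the contrast of P3 with P0 was meant to test.

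**Figure D1:**
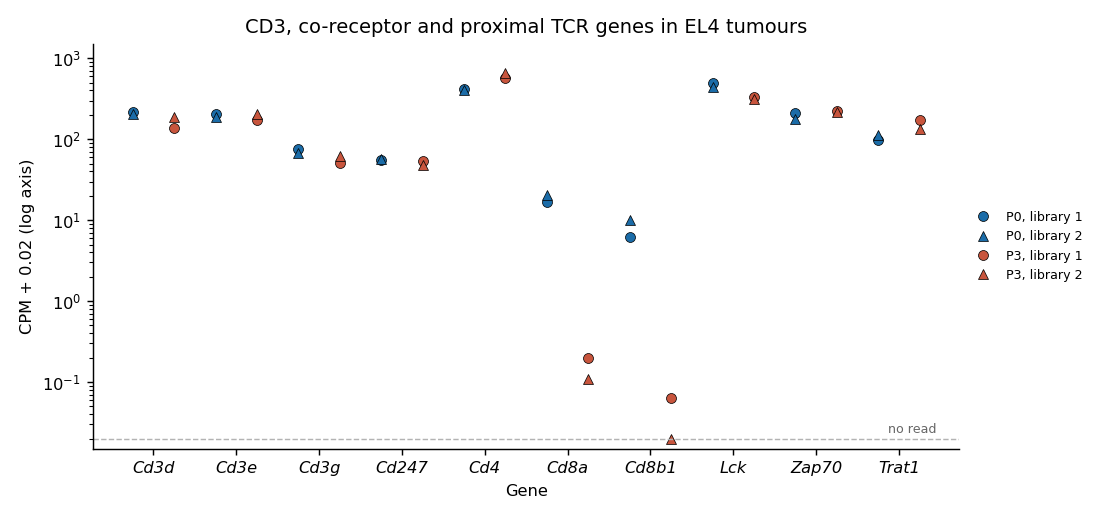
Level of each of the 10 genes in the EL4 tumour libraries, as CPM + 0.02 on a log axis, with blue points for P0, red points for P3, circles for library 1 and triangles for library 2. Cd8a and Cd8b1 stand at 6.11 to 20.5 CPM in P0 and at 0 to 0.177 CPM in P3, while the CD3 genes and Zap70 lie close together in both groups.

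Both CD8 genes were nearly absent from P3. Cd8a, which encodes the chain that holds LCK, had 352 and 515 reads in the P0 pair, and only 4 and 2 in the P3 pair. Its level was 16.7 and 20.5 CPM in P0 against 0.177 and 0.0878 CPM in P3, and the groups were far apart. The fold change was -7.08 ± 0.34 (edgeR adjusted p = 0.000547), and the ratio of reads was 142, with a 95% counting interval of 64.9 to 388. Cd8b1, the partner chain of the CD8 heterodimer, had 129 and 255 reads in P0 and 1 and 0 in P3. That is a ratio of 377 with a counting interval of 67.3 to 14900, and edgeR gave -8.21 ± 0.68 (adjusted p = 0.00178), a fitted value that depends on the prior count. Intervals of read ratios cover counting error only. Within P0 the reads of Cd8b1 per read of Cd8a were 0.366 and 0.495, or 0.899 and 1.21 per exon length.

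The CD8 genes lie on chromosome 6 in mm10, Cd8b1 at chr6:71322788-71337494 and Cd8a at chr6:71373427-71379173, both on the plus strand with starts 50639 bases apart. Cd4 is on the same chromosome at chr6:124864692-124888221 on the minus strand. RefSeq's promoter window of Cd8a on GRCm38.p6, chr6:71373177-71373476 on the plus strand, is shown because this gene fell most among the members whose window was at hand. It runs from 250 bases before to 50 bases after the start, and capitals mark CG dinucleotides, the sites that DNA methyltransferases act on.
Cd8a: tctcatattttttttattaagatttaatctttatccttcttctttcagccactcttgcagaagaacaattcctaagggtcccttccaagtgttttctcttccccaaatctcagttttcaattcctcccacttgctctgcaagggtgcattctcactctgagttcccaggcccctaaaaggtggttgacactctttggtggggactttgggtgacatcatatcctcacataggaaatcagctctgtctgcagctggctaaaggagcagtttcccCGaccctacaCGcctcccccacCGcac
This window holds 3 CG dinucleotides, and 76.7% of the 32851 RefSeq windows of 300 bases hold as many or more. It holds 3 matches to CANNTG, the core letters of an E-box, which reads alike on both strands, and 72.3% of all windows hold at least 1. No match to TGTGGT, the core letters of a RUNX site, was found on either strand, and 16.8% of all windows have one.

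Marker lists of cytotoxic and dendritic cells, among which some cells can carry CD8, mostly moved the same way. NK and cytotoxic markers summed to 157 and 170 CPM in P0 and 36.3 and 26.6 CPM in P3. Of these 8 of 8 tested were lower, where 19.9% of all genes tested were lower. Dendritic markers, some of whose cells express Cd8a, summed to 187 and 216 CPM in P0 and 55.7 and 48.8 CPM in P3, and 7 of 10 were lower. Xcr1 (-0.09 ± 0.41, edgeR adjusted p = 0.868), Zbtb46 (0.17 ± 0.23, adjusted p = 0.585) and Clec10a (-1.42 ± 1.06, adjusted p = 0.325) did not pass. All 10 dendritic markers had reads in each tumour library, and of the NK and cytotoxic list only Klre1 was at 0, in P3 library 1. Their part in the fall of the CD8 genes was not tested. In bulk tissue fewer cells of a type and less RNA per cell cannot be told apart. In cultured EG7 cells Cd8a had 1 read in all 6 libraries together and Cd8b1 had 4. Neither was tested there, and both groups of any EG7 comparison lay under the floor of 3 counts over a group (0.0751 to 0.0935 CPM).

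Cd4 moved the other way. It stood at 422 and 405 CPM in P0 and 576 and 664 CPM in P3. Both P3 libraries were above both P0 libraries, where 76.1% of all genes tested had groups that did not overlap. The rise was 0.58 ± 0.12 on the log2 scale (edgeR adjusted p = 0.016, 95% interval 0.29 to 0.88). Reads of Cd4 per read of Cd8a were 25.3 and 19.8 in the P0 libraries, and P3 held too few Cd8a reads for such a ratio. Trat1 was higher in P3 as well, at 172 and 132 CPM against 97.2 and 114 CPM in P0 (0.52 ± 0.16, adjusted p = 0.0461), with a 95% interval of 0.13 to 0.91.

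The kinases split. Lck stood at 490 and 440 CPM in P0 and 332 and 312 CPM in P3 and fell by 0.53 on the log2 scale (SE 0.11, edgeR adjusted p = 0.0165). Zap70, the kinase that docks on phosphorylated CD3, stood at 209 and 178 CPM in P0 and 224 and 214 CPM in P3 (0.18 ± 0.11, adjusted p = 0.246). Reads of Lck per read of Zap70, a ratio free of library scaling, were 2.34 and 2.48 in P0 and 1.48 and 1.46 in P3, and the groups did not overlap. Such a ratio shows unequal change and does not say which gene moved.

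None of the 4 CD3 chains passed in the tumours. Cd3d stood at 216 and 204 CPM in P0 and 137 and 188 CPM in P3 (-0.37 ± 0.16, adjusted p = 0.116), and Cd3g at 76.7 and 67.7 against 51.2 and 62.1 CPM (-0.35 ± 0.13, adjusted p = 0.0829). Both were lower in each P3 library than in each P0 library, and 76.1% of all genes tested had groups that did not overlap. Cd3e stood at 207 and 186 CPM in P0 and 173 and 206 CPM in P3, an overlap (-0.05 ± 0.12, adjusted p = 0.747, 95% interval -0.36 to 0.25). Cd247 stood at 56 and 57.7 CPM in P0 and 53.2 and 48.6 CPM in P3 (-0.16 ± 0.10, adjusted p = 0.238). Without P3 library 2, Cd3d stood at -0.62 and Cd3g at -0.50, and without P3 library 1 they stood at -0.15 and -0.20.

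Without P0 library 1 or P0 library 2 all 5 calls were lost, at adjusted p = 0.0606 to 0.33, while Cd8a stayed between -7.23 and -6.92 and Cd4 between 0.55 and 0.60. In those fits the lone P0 library is assumed to vary like the P3 pair, and 0 of all genes tested passed in edgeR (7736 passed with every library). Every gene of the pathway lists named for the tumours lost its call in those fits too.

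Per exon length, in CPM per kilobase, the order of levels in P0 was Lck (159), Cd3d (116), Cd4 (103), Zap70 (64.7), Cd3e (48.1), Trat1 (22.7), Cd3g (22.1), Cd247 (10.7), Cd8b1 (5.48) and Cd8a (5.11). Trat1 and Cd3g overlapped, as did the CD8 genes, and other neighbours were apart in both libraries. In P3 the order began with Cd4 (154), ahead of Lck (110) and Cd3d (89.6), and ended with Cd8a (0.0364) and Cd8b1 (0.0149). Exon lengths came from GENCODE and not from the authors' counting. Of Cd247's exon bases 56.4% are shared with Pou2f1 on the opposite strand, and whether the counting used strand is not given in the sources used here, so the level of Cd247 is uncertain.

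In EG7-OVA cells 8 of the 10 genes passed the filter on low counts. With azacytidine 1 was higher (Cd3g), 1 was lower (Trat1) and 6 did not pass, where 20.3% of 19123 genes tested passed, 13.6% higher and 6.7% lower. With decitabine 1 was higher (Cd3g), 0 were lower and 7 did not pass, where 16.7% of genes passed, 12.4% higher and 4.3% lower. DESeq2 called 18.4% and 16.6% of genes. The medians of the 8 genes were 0.17 and 0.39, against 0.033 and 0.036 for all genes tested. Both drug comparisons share the DMSO libraries, so their values are not independent of each other. The comparisons ask how each drug changed the cells against solvent.

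**Figure D2:**
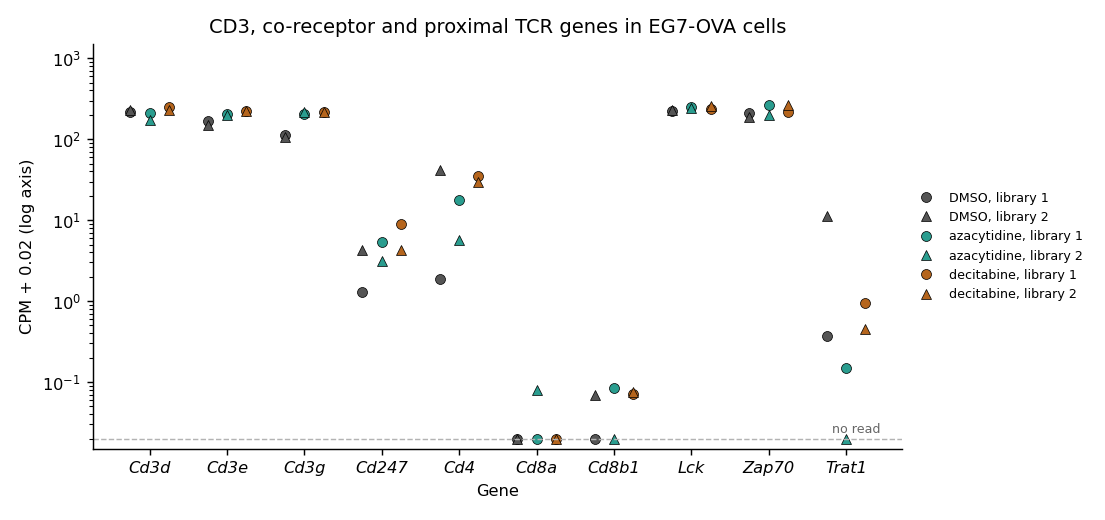
Level of each of the 10 genes in the EG7-OVA libraries, as CPM + 0.02 on a log axis, with grey points for DMSO, green for azacytidine, brown for decitabine, circles for library 1 and triangles for library 2. Cd3g is higher with both drugs, Cd4 and Trat1 are far apart between the DMSO libraries (1.86 and 41.5 CPM, 0.352 and 11.3 CPM), and the CD8 genes hold at most 1 read in any library.

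Cd3g, the gamma chain of CD3, rose with both drugs. It stood at 113 and 105 CPM with DMSO, 206 and 214 CPM with azacytidine and 215 in both decitabine libraries. Every drug library was above both DMSO libraries, where 61.1% and 58.8% of all genes tested had groups that did not overlap. The change was 0.95 ± 0.15 with azacytidine (edgeR adjusted p = 0.00232, 95% interval 0.60 to 1.29) and 0.98 ± 0.15 with decitabine (adjusted p = 0.00233, 0.63 to 1.32). It kept its call in each of the 11 alternatives run in either drug comparison, between 0.85 and 1.02. Some markers of other cells moved with the drugs as well. Macrophage markers summed to 21.5 and 23.7 CPM with DMSO, 38.4 and 48.2 under azacytidine and 63.6 and 65.2 under decitabine, and 5 of 9 tested rose with either drug (Adgre1, Cd14, Cd68, Lyz2 and Mrc1). Of the stromal and endothelial markers 4 of 6 tested rose with either drug (Col1a1, Col1a2, Pdgfrb and Tek), with sums of 61.7 and 110, 143 and 101, and 148 and 140 CPM. Of the same lists C1qa, C1qb, C1qc, Msr1, Col3a1, Dcn and Kdr were at 0 in all 6 libraries. Over all genes tested 13.6% were higher with azacytidine and 12.4% with decitabine. Among dendritic markers Flt3 fell with both drugs and Ccr7 rose with decitabine. Gzma of the NK and cytotoxic list fell with azacytidine, and 0 of 8 B-cell markers tested passed with either drug. The part of these markers in the rise of Cd3g was not tested.

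The neighbours of Cd3g on chromosome 9 did not pass. For Cd3d the DMSO libraries held 214 and 232 CPM, the azacytidine libraries 211 and 173 and the decitabine libraries 249 and 229, giving -0.22 ± 0.17 (edgeR adjusted p = 0.4) and 0.10 ± 0.17 (adjusted p = 0.748). Cd3e, the chain that pairs with both, stood at 167 and 150 CPM with DMSO, 202 and 199 under azacytidine and 226 and 221 under decitabine. Its drug libraries all lay above the DMSO libraries, at 0.34 ± 0.15 (adjusted p = 0.156) and 0.50 ± 0.15 (adjusted p = 0.0533), and 61.1% and 58.8% of all genes tested had groups that did not overlap. DESeq2 called Cd3e with decitabine (0.45, adjusted p = 0.0341).

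Within each library the CD3 genes can be set against each other without scaling. For each read of Cd3d the DMSO libraries held 0.528 and 0.454 reads of Cd3g, the azacytidine libraries 0.98 and 1.24 and the decitabine libraries 0.863 and 0.938. Each drug library was above both DMSO libraries. In the tumours this ratio was 0.354 and 0.331 in P0 and 0.373 and 0.33 in P3, so those groups overlapped. The reads of Cd3e per read of Cd3d came to 0.779 and 0.648 in the DMSO libraries, 0.96 and 1.15 with azacytidine, 0.909 and 0.964 with decitabine, 0.956 and 0.908 in P0 and 1.26 and 1.1 in P3. Here too the drug libraries lay above DMSO, and the P3 libraries above P0. The tables were made separately and were not tested against each other.

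**Figure D3:**
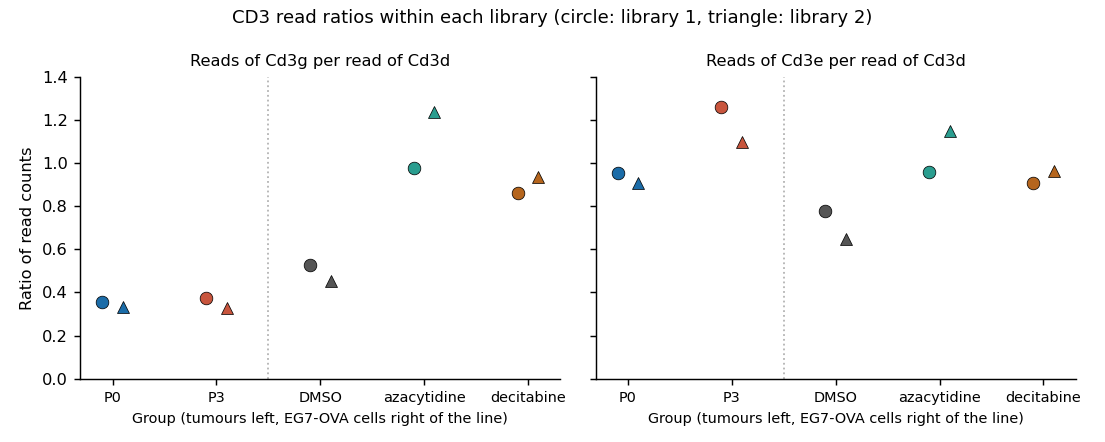
Reads of Cd3g (left) and Cd3e (right) per read of Cd3d in every library, with circles for library 1, triangles for library 2 and a dotted line between tumours and EG7-OVA cells. The Cd3g ratio lies at 0.454 and 0.528 with DMSO and at 0.863 to 1.24 with the drugs, and at 0.33 to 0.373 in the tumours.

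Cd3g and Cd3d are divergent neighbours in mm10, Cd3g at chr9:44969572-44980431 on the minus strand and Cd3d at chr9:44981786-44987339 on the plus strand, with starts 1355 bases apart. Cd3e follows at chr9:44998740-45009627 on the minus strand, its start 27841 bases from that of Cd3d. The RefSeq windows of the divergent pair on GRCm38.p6, chr9:44980382-44980681 on the minus strand for Cd3g and chr9:44981536-44981835 on the plus strand for Cd3d, are shown because the genes sit side by side and only the first passed the test. Capitals mark CG dinucleotides.
Cd3g: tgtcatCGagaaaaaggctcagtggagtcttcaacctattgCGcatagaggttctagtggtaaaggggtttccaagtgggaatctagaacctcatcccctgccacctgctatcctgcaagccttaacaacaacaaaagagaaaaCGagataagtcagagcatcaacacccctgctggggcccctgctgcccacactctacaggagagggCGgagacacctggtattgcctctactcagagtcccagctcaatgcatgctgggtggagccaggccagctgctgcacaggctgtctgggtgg
Cd3d: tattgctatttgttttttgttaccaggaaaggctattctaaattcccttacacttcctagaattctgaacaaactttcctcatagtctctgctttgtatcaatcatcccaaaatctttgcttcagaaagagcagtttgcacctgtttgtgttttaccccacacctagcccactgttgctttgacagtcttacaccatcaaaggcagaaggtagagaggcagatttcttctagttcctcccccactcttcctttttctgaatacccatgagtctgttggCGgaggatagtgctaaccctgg
The Cd3g window holds 4 CG dinucleotides and the Cd3d window 1, where the median of all windows is 7 and 68.6% and 94.6% of them hold as many or more. CANNTG matched 4 times in the Cd3g window and 1 time in the Cd3d window, and TGTGGT in neither. Of the members 8 had a window in the RefSeq table. No methylation was measured in these samples.

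Cd4 and Trat1 differed widely between the DMSO libraries. Cd4 stood at 1.86 CPM in DMSO library 1 and 41.5 CPM in DMSO library 2, and 0.336% of genes at 1 CPM or more differed as much or more between them. With azacytidine it stood at 17.5 and 5.6 CPM and with decitabine at 34.6 and 29.2 CPM, and each drug group lay between the DMSO libraries. The fold changes were -0.91 ± 0.94 (edgeR adjusted p = 0.549) and 0.56 ± 0.92 (adjusted p = 0.745). Without DMSO library 1 the azacytidine value was -1.87 (adjusted p = 0.0146), and without DMSO library 2 it was 2.58 (adjusted p = 0.00745). For decitabine these values were -0.39 (adjusted p = 0.68) and 4.05 (adjusted p = 0.000649). The direction for Cd4 thus turned with the DMSO library used.

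Trat1 had 7 and 227 reads with DMSO, 2 and 0 under azacytidine and 18 and 8 under decitabine, or 0.352 and 11.3, 0.131 and 0, and 0.918 and 0.437 CPM. Both azacytidine libraries lay under both DMSO libraries, where 61.1% of all genes tested had groups that did not overlap. The decitabine libraries lay between the DMSO libraries. The reads with DMSO against azacytidine gave a ratio of 94 (95% counting interval 25.7 to 781), and edgeR passed the fall (adjusted p = 0.0185). The call was lost without DMSO library 2 (-2.41, adjusted p = 0.263), without azacytidine library 1 (adjusted p = 0.0822) and without azacytidine library 2 (adjusted p = 0.122). With only the 4 libraries of this comparison in the fit Trat1 did not pass the filter on low counts. With decitabine it stood at -3.09 ± 1.16 (adjusted p = 0.101), at -4.05 (adjusted p = 0.000745) without DMSO library 1 and at 0.90 (adjusted p = 0.643) without DMSO library 2.

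Trat1 lies at chr16:48730774-48772021 on the minus strand. Its RefSeq window on GRCm38.p6, chr16:48772013-48772312 on the minus strand, is shown because it is the member called lower with azacytidine, and capitals mark CG dinucleotides.
Trat1: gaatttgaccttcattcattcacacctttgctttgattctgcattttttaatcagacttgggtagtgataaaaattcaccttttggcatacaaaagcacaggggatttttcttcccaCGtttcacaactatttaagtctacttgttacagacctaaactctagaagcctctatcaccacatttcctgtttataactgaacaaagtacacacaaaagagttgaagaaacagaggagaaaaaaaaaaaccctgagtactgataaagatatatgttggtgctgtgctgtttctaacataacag
It holds 1 CG dinucleotide, no match to CANNTG and 1 match to TGTGGT.

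The remaining members showed no call with either drug. Lck stood at 222 and 229 CPM with DMSO, 250 and 240 under azacytidine and 233 and 257 under decitabine, or 0.11 ± 0.15 and 0.12 ± 0.15 (edgeR adjusted p = 0.657 and 0.681). Zap70 stood at 208 and 187, 261 and 200, and 216 and 265 CPM in the same order (0.23 ± 0.19 and 0.29 ± 0.19, adjusted p = 0.449 and 0.353). The 95% intervals reached 0.46 for Lck with both drugs, and 0.65 and 0.71 for Zap70, so changes of that size were not shown to be absent. Cd247 was low throughout, at 1.26 and 4.29 CPM with DMSO, 5.42 and 3.1 under azacytidine and 8.97 and 4.26 under decitabine. Its values were 0.62 ± 0.59 (adjusted p = 0.509) and 1.25 ± 0.58 (adjusted p = 0.182), and without DMSO library 2 it passed with decitabine (2.35, adjusted p = 0.0157). Per exon length Cd3d led in all 3 groups (123, 106 and 132 CPM per kilobase with DMSO, azacytidine and decitabine), followed by Lck and Zap70, whose ranges overlapped with either drug. Cd3g stood under Cd3e with DMSO (33.4 against 38.9) and above it with azacytidine (64.4 against 49.2) and decitabine (65.8 against 54.8).

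The drugs were also set against each other, at doses that differ, so the test compares the treatments as given and not the molecules dose for dose. None of the 8 genes passed, where 0% of 19123 genes passed in edgeR, 1218 had an unadjusted p under 0.05, 0 of them members, and DESeq2 called 175 genes (1.18% of those it adjusted). Cd3g differed by -0.03 ± 0.15 (95% interval -0.37 to 0.31) and Cd3e by -0.16 ± 0.15 (-0.50 to 0.19). Cd3d stood at -0.32 ± 0.17 (-0.69 to 0.05), with both azacytidine libraries under both decitabine libraries, as 35% of all genes tested had groups that did not overlap. The intervals were wide for Cd4 (-3.58 to 0.65) and Trat1 (-7.23 to 0.62). A difference that misses the threshold does not show that the drugs act alike.

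**Figure D4:**
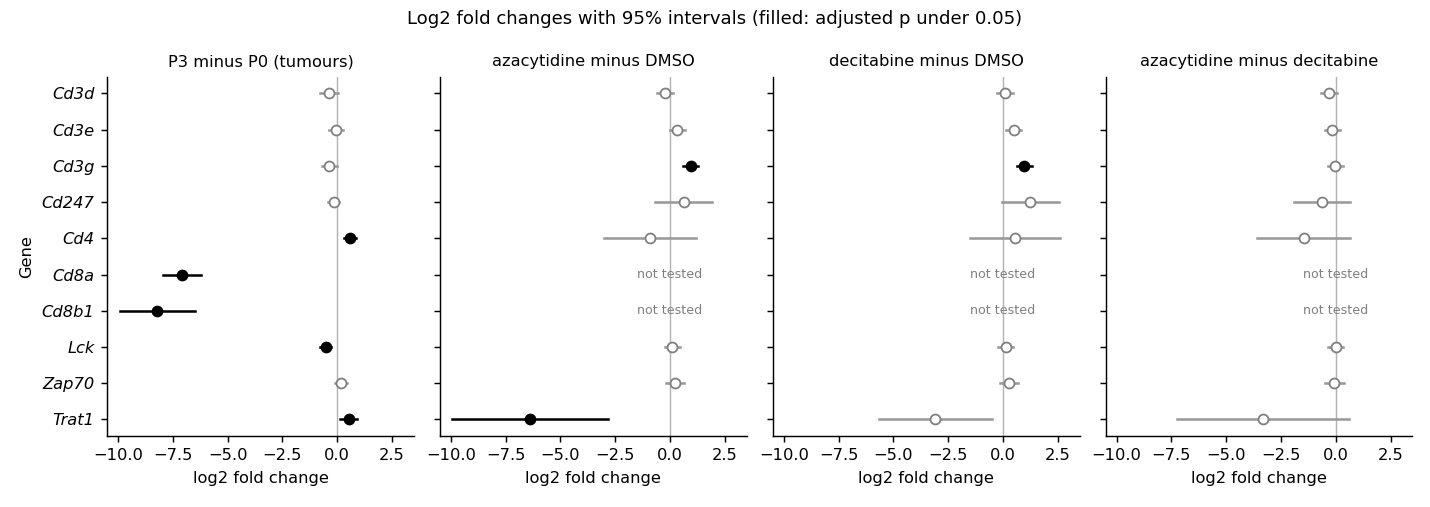
Log2 fold change of each member with its 95% interval in the 4 comparisons, with filled points where the edgeR adjusted p is under 0.05 and open points where it is not. The CD8 genes at -7.08 and -8.21 stand far from the other members in the tumours, Cd3g stands at 0.95 and 0.98 with the drugs, and the intervals of Cd4 and Trat1 in EG7-OVA cells are the widest.

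Beyond the members, 3 lists of the same pathway were followed. Of 29 adaptors, kinases and effectors, 11 were higher in P3 tumours, 2 were lower and 16 did not pass, with a median of 0.16 against -0.002 for all genes, of which 18.8% were higher and 19.9% lower. Fyn, the kinase most like Lck, stood at 55.7 and 61.8 CPM in P0 and 144 and 148 CPM in P3 (1.31 ± 0.09, edgeR adjusted p = 0.00127). Txk, a Tec-family kinase (2.11 ± 0.24), and Tespa1, which takes part in thymocyte receptor signalling (1.44 ± 0.18), rose too. Rasgrp1, which switches on RAS downstream of the receptor, fell from 320 and 309 to 133 and 108 CPM (-1.38 ± 0.12), and the adaptor gene Grap fell by 0.61 (SE 0.10).

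With azacytidine 7 of the 29 were higher, 6 lower and 16 did not pass (median 0.00). With decitabine 4 were higher, 2 lower and 23 did not pass (median 0.19), against medians of 0.033 and 0.036 for all genes, of which 20.3% passed with azacytidine and 16.7% with decitabine. Skap1, an adaptor for integrin activation, stood at 127 and 134 CPM with DMSO, 43.3 and 38.7 under azacytidine and 65.5 and 58.9 under decitabine (-1.67 ± 0.17 and -1.07 ± 0.16). Rasgrp1 fell with both drugs, from 823 and 730 CPM to 230 and 245 with azacytidine and 487 and 289 with decitabine. With azacytidine Was (0.84 ± 0.20) and Grap (0.74 ± 0.20) rose and Themis, a T-cell development gene, fell by 2.40 (SE 0.45). With decitabine Lcp2, which encodes SLP-76, rose (0.70 ± 0.16). Without azacytidine library 1 the azacytidine calls of Was (0.52), Grap (0.59) and Themis (-2.43) were lost. Was lost its call also without DMSO library 2 (0.71). Grap lost its call also without DMSO library 1 (0.77), DMSO library 2 (0.65) or azacytidine library 2 (0.82). Without decitabine library 2 the decitabine calls of Lcp2 (0.74) and Rasgrp1 (-0.69) were lost. Lcp2 lost its call also without decitabine library 1 (0.61) or DMSO library 2 (0.62).

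Of 22 brakes of the pathway, 7 were higher in P3, 3 lower and 12 did not pass (median 0.08), where 38.7% of all genes passed. Ubash3a, which encodes a phosphatase-family protein that restrains the receptor (1.03 ± 0.10), Dusp6 (0.91 ± 0.12) and Ptpn2 (0.70 ± 0.10) rose, and the surface receptor gene Cd6 (-1.62 ± 0.17), the phosphatase gene Ptpn6 (-0.79 ± 0.11) and Sla2 (-0.49 ± 0.11) fell. In EG7 cells 21 were tested. With azacytidine 4 were higher, 4 lower and 13 did not pass (median 0.15), and with decitabine 6 were higher, 0 lower and 15 did not pass (median 0.18), where 20.3% and 16.7% of all genes passed. Cd5, which dampens receptor signals, stood at 69.9 and 66.8 CPM with DMSO, 162 and 93.8 under azacytidine and 148 and 143 under decitabine (0.90 ± 0.23 and 1.09 ± 0.23). Cd6 rose by 1.36 ± 0.38 and 1.92 ± 0.38. Ptpn6 rose by 0.77 ± 0.20 with either drug (edgeR adjusted p = 0.0207 with azacytidine and 0.0239 with decitabine). With azacytidine Ptpn22 (-0.96 ± 0.19), Ubash3a (-1.15 ± 0.24) and Sla (-0.90 ± 0.25) fell. Dusp6 rose with decitabine (1.32 ± 0.24). Without azacytidine library 1 the azacytidine calls of Cd5 (0.42), Cd6 (0.90), Ptpn6 (0.49), Ptpn22 (-0.84) and Ubash3a (-1.24) were lost. Without azacytidine library 2 those of Sla (-0.67) and Ubash3a (-1.13) were lost. Cd5 lost this call also without either DMSO library, and Ptpn6 without DMSO library 2. Cd6 lost it without DMSO library 1 and with only the 4 libraries compared.

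Of 16 regulators of the choice between CD4 and CD8, 3 were higher in P3, 5 lower and 8 did not pass (median -0.07), where 38.7% of all genes passed. Zbtb7b, which encodes ThPOK, the factor that keeps CD4 on and CD8 off, stood at 22.9 and 20.9 CPM in P0 and 89.6 and 108 CPM in P3 (2.17 ± 0.13, edgeR adjusted p = 0.000851). Gata3 (0.67 ± 0.12) and Tox (0.49 ± 0.13), both needed for CD4 T cells, rose. Satb1, a chromatin organiser that acts at the CD4 and CD8 genes, fell from 410 and 416 to 4.33 and 15.2 CPM (-5.40 ± 0.56), Myb from 358 and 326 to 116 and 126 CPM (-1.50 ± 0.10), and Ets1 by 0.98 (SE 0.10). Runx3 was named after its values were seen because it opposes ThPOK. It stood at 78.1 and 72.5 CPM in P0 and 82.1 and 89.9 CPM in P3 and did not pass (0.19 ± 0.10, edgeR adjusted p = 0.165).

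The same regulators gave 3 higher, 3 lower and 10 not passed with azacytidine, and 2 higher, 2 lower and 12 not passed with decitabine (medians -0.00 and -0.00). Of all genes 20.3% and 16.7% passed, with medians of 0.033 and 0.036. Zbtb7b stood at 12.4 and 16.6 CPM with DMSO, 104 and 67.9 under azacytidine and 74.7 and 85.3 under decitabine (2.57 ± 0.25 and 2.46 ± 0.25, edgeR adjusted p = 0.000133 and 0.000208). All 4 drug libraries were above both DMSO libraries, where 61.1% and 58.8% of all genes tested had groups that did not overlap. Myb fell from 218 and 197 CPM to 84.6 and 97 with azacytidine and 114 and 103 with decitabine. Lef1 fell by 1.15 (SE 0.29) and 1.52 (SE 0.29), and Bcl11b, a T-lineage commitment factor, rose by 0.92 ± 0.18 and 0.59 ± 0.18. With azacytidine Gata3 rose (0.79 ± 0.23) and Tox fell by 0.83 (SE 0.16). Without azacytidine library 1 the azacytidine calls of Gata3 (0.36), Lef1 (-0.98), Bcl11b (0.86) and Tox (-0.80) were lost. Gata3 lost this call also without DMSO library 1 or either decitabine library, and with only the 4 libraries compared. Lef1 lost it without DMSO library 2 (-0.85). Bcl11b with decitabine lost its call without any of the 6 libraries in turn (0.38 to 0.72). It was lost too with median-ratio size factors (edgeR adjusted p = 0.0623) and with only the 4 libraries compared (0.0901). Between the drugs 0 genes of the 3 lists passed in edgeR, with Cd28 (-0.88 ± 0.17, adjusted p = 0.159), Ptpn22 (-1.09 ± 0.19, adjusted p = 0.159) and Tox (-0.44 ± 0.16, adjusted p = 0.617) having the smallest p of each, and list medians of -0.24, -0.21 and 0.06 against 0.004. DESeq2 called Cd28 (adjusted p = 0.000231) and Ptpn22 (adjusted p = 0.000246) there.

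**Figure D5:**
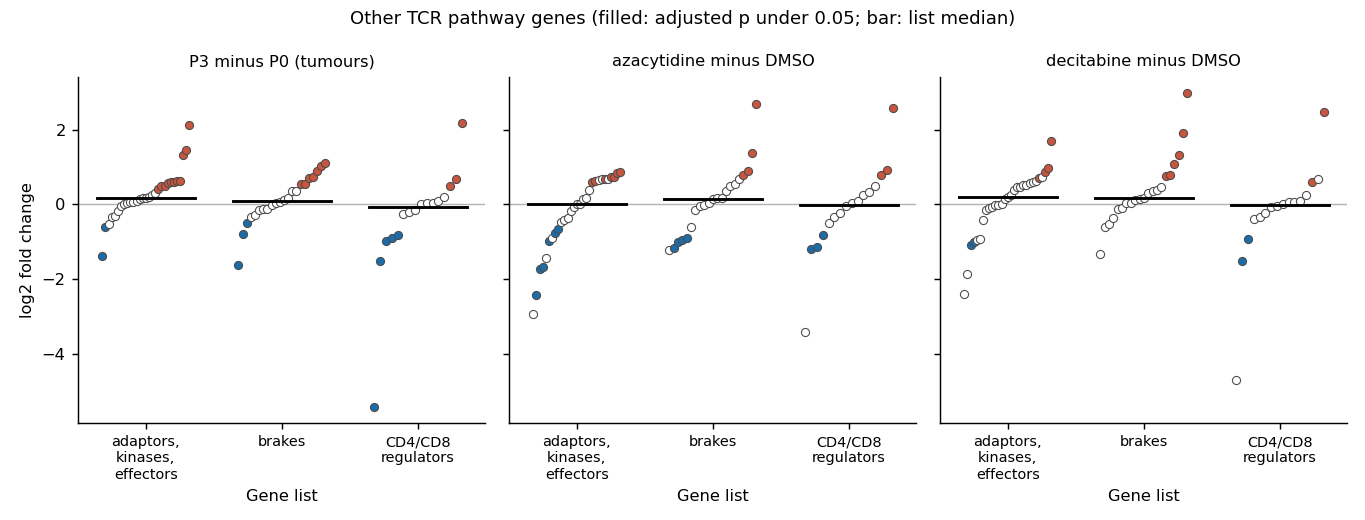
Log2 fold change of the genes in the 3 pathway lists, sorted within each list, for the tumours and for each drug against DMSO, with red points for genes that rose and blue for genes that fell at an edgeR adjusted p under 0.05, open points for the rest and a bar at the list median. Medians lie between -0.07 and 0.19, and Zbtb7b is the highest regulator in each panel (2.17, 2.57 and 2.46).

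Of the receptor chains themselves, the alpha and beta constant regions had reads in EG7 cells only. Trdc, that of the delta chain, had just 2 reads in DMSO library 1 and 1 in decitabine library 1. Trac, the constant region of the alpha chain, is listed at 0 in all 4 tumour libraries, as are Trbc1, Trbc2 and Trdc. The B-cell marker Ighm is listed at 0 there too. Whether the counting of the tumours covered these genes is not given, so their zeros do not show that expression was absent. In EG7 cells Trac stood at 85.7 and 99.7 CPM with DMSO, 120 and 124 under azacytidine and 135 and 126 under decitabine (0.49 ± 0.16 with decitabine, adjusted p = 0.0614). Trbc2, a constant region of the beta chain which is so like Trbc1 that reads may be split between them, stood at 8.04 and 133, 101 and 27.4, and 117 and 62.5 CPM in the same order. As for Cd4, DMSO library 1 was the lowest and DMSO library 2 the highest of the 6. Of the gamma-chain constant regions, Trgc4 (0.50 ± 0.09) and Trgc1 (0.89 ± 0.21) rose in P3, and Trgc2 (-1.43 ± 0.24) and Trgc4 (-1.11 ± 0.22) fell with azacytidine, the last not without azacytidine library 1 (adjusted p = 0.0713). Over the list of 7 this made 2 higher of 3 tested in the tumours (median 0.50, 38.7% of all genes passed) and 2 lower of 5 with azacytidine (median -1.11, 20.3%). In edgeR 0 of 5 passed with decitabine (median 0.20, 16.7%) or between the drugs (median -0.48, 0%). DESeq2 called 2 of the list between the drugs, Trgc4 among them (-1.29, adjusted p = 9.22e-05).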

How the data were processed

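The deposited tumour table holds raw counts per gene, and the deposited EG7 table holds expected counts, whole but for 145 values in 62 entries, which were rounded here. How the authors made the values that are not whole is not stated. Per the submitters' processing notes the tools were fastp, Trim Galore, STAR and featureCounts with builds mm10 and GRCh38, while the sources used here give no version, annotation or strand setting. The NKYS libraries were not analysed here. The titles of the DMSO samples number them 2 and 3 and their library names 1 and 2, so the EG7 control columns were mapped to the group only. All columns of values in both tables were mapped.

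Each table was fitted on its own in edgeR 4.0.16 (R 4.3.3): filterByExpr, TMM scaling, 1 mean per group, glmQLFit and the two-sided quasi-likelihood test, with the 6 EG7 libraries in a single fit. SE is the log2 fold change over the root of F, and intervals are 95%. The alternatives tried were DESeq2 1.42.0, no filter on low counts, median-ratio size factors, a replicate block, a fit of just the 4 libraries compared, and each library left out in turn. The scripts were tested on simulated data. Same-numbered tumour libraries deviated together at r = -0.0374, and the EG7 pairs at r = -0.257, -0.191 and 0.273, so the numbers were not taken to pair samples. Positions and exon lengths came from GENCODE M21 on mm10, promoter windows from RefSeq on GRCm38.p6. Named genes were all 10 members and, per pathway list and comparison, up to 3 per direction with the smallest p among those passed, or the smallest p where none passed. Some genes that this rule names are not reported here. The members and lists were chosen with earlier results of these data known. Fyb is listed as Fyb1 in the EG7 table.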

Additional observations from a re-analysis of the deposited data

How the results depend on the processing

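Across the alternatives, 299 of 342 member values kept their direction and side of the threshold, 15 lost a call, 12 gained one and 16 turned direction. In the tumours the members passed numbered 5, or 3 with the replicate block (Cd4 at adjusted p = 0.0512 and Trat1 at 0.0825 lost their calls), and 0 to 7 when a library was left out. All genes passed numbered 7736, and 0 to 11286 when a library was left out, 0 without P0 library 1 or 2. With azacytidine the members passed numbered 2, with 1 when only the 4 libraries were compared, 3 with no filter (Cd4 at adjusted p = 0.00689) and 1 to 3 when a library was left out, and all genes 3883, with 4229 in DESeq2, 5289 with no filter and 1675 to 3897 when a library was left out. With decitabine the members numbered 1, with 2 in DESeq2, 3 with no filter and 1 to 3 when a library was left out, and all genes 3198, with 1520 to 3290 when a library was left out. Between the drugs the members numbered 0, with 2 with no filter (Cd4 and Trat1), and all genes 0, with 175 in DESeq2, 378 with no filter and 0 to 88 when a library was left out. The replicate block changed no other member call, and of the named list genes it ended those of Tox in the tumours (adjusted p = 0.0718), Gata3 with azacytidine (0.0542) and Bcl11b with decitabine (0.0559). The cause of each shift was not tested.

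Turned directions were as follows. Between the drugs Lck was at 0.02 in DESeq2 and with median-ratio factors, 0.00 with the replicate block, and 0.01 and 0.06 without azacytidine library 2 and decitabine library 2, where Zap70 was at 0.11 and 0.08, and Cd247 was at 0.01 without decitabine library 1. With azacytidine Cd247 was at -0.03 without DMSO library 1, Cd4 at 2.58 without DMSO library 2 and Zap70 at -0.01 without azacytidine library 1. With decitabine Cd3d was at -0.00 without decitabine library 1, Cd4 at -0.39 without DMSO library 1 and Trat1 at 0.90 without DMSO library 2. In the tumours Cd3e was at 0.02 without P0 library 1 and 0.08 without P3 library 1. Of the adaptor list 13, 13 and 6 genes passed in the tumours, with azacytidine and with decitabine, and 11 to 13, 12 to 18 and 6 to 13 in the alternatives that keep every library. The brakes gave 10, 8 and 6 (9 to 10, 6 to 8 and 6), and the regulators 8, 6 and 4 (7 to 8, 5 to 7 and 3 to 6). Without a P0 library each tumour list fell to 0. Without azacytidine library 1 the adaptors called with azacytidine fell to 2, the brakes to 1, the regulators to 2 and the constant regions from 2 to 1. Without azacytidine library 2 the adaptors fell to 7, and without DMSO library 1 the brakes fell to 5. With decitabine the adaptors fell to 3 without decitabine library 2 and the brakes to 3 without decitabine library 1. Without DMSO library 1, and likewise without DMSO library 2, the constant regions called numbered 4 with azacytidine and 2 with decitabine, and 1 with decitabine without decitabine library 1. When a library was left out, the values ran for Cd247 from -1.11 to 0.01, Lck from -0.06 to 0.06 and Zap70 from -0.27 to 0.11 between the drugs. They ran for Cd247 from -0.03 to 1.71, Cd4 from -1.97 to 2.58 and Zap70 from -0.01 to 0.37 with azacytidine, for Cd3d from -0.00 to 0.14, Cd4 from -0.39 to 4.05 and Trat1 from -4.05 to 0.90 with decitabine, and for Cd3e from -0.19 to 0.08 in the tumours. Groups of 2 libraries limit all of these tests.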

Other observations

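The DMSO libraries differed in further genes of the receptor pathway, chosen after their values were seen as the list genes at least 8-fold apart between them. There were 6, all higher in DMSO library 2. Satb1 had no read in DMSO library 1 and stood at 80.3 CPM in DMSO library 2, at 6.99 and 0.656 CPM with azacytidine, and at 2.85 and 0.219 CPM with decitabine. Plcg1, the phospholipase that receptor signals switch on, held 0.503 and 13.7 CPM in the DMSO libraries, 4.64 and 2.98 in the azacytidine libraries and 1.99 and 1.91 in the decitabine libraries. Prkcq, which encodes the protein kinase C isoform of the T-cell synapse, stood at 0.0503 and 15.6, 1.96 and 0.119, and 2.5 and 0.492 CPM in the same order. The others were the constant regions Trbc2, Trbc1 (0.0503 and 30.1 CPM with DMSO) and Trgc1 (0.0503 and 15.7 CPM). Cd4, Trat1 and Trbc2 were likewise higher in DMSO library 2, while the CD3 chains other than Cd247, and the kinases Lck and Zap70, differed by 0.15 or less on the log2 scale between these libraries.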
